A study of Drosophila melanogaster with 2 samples.

Results

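The genes for the cytosolic ribosomal proteins of Drosophila melanogaster were examined for binding of Eip74EF. They were taken as all protein-coding genes of the Ensembl annotation whose symbol starts with RpL or RpS followed by a digit, together with RpLP0, RpLP1, RpLP2 and sta. This rule found 92 genes, 53 for the large and 39 for the small ribosomal subunit, among 13945 protein-coding genes. It used names only and no measured value. Chromatin immunoprecipitation and sequencing (ChIP-seq) was carried out on whole embryos of mixed sex, aged 8 to 16 h, from a transgenic strain that stably expressed Eip74EF with enhanced GFP joined to its C terminus, and the antibody was raised against GFP. The samples formed 1 group of 2, biological replicates 3 and 1 of that strain, and a ChIP without the tag was not analysed here. The labels do not state the promoter that drives the fusion protein, or whether the untagged protein was also present. Whole embryos were used, so the cells in which a gene was bound are unknown.

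Eip74EF is an ETS-domain transcription factor induced by the steroid hormone ecdysone, and ETS domains recognise DNA around the core GGAA. Cytosolic ribosomal proteins assemble with ribosomal RNA into the subunits that translate messenger RNA, and every growing cell needs nearly all of them in balanced amounts. Loss of 1 copy of many of these genes gives the Minute phenotype of slow development and short bristles. Their promoters in flies are known to start transcription within a pyrimidine-rich tract, the TCT initiator, and commonly lack a TATA box. Several of the proteins are encoded by a pair of genes, of which 1 copy is often expressed mainly in the germ line.

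The deposited peak lists give a summit and a signal for each peak, the signal being the value of the authors relative to a control library. The list filtered by the irreproducible discovery rate (IDR) holds 5004 peaks, with signals between 185 and 3792 and a median of 282. The pooled list and both replicate lists hold 30000 peaks each. Genes with an IDR summit no farther than 500 bp from an annotated transcription start site (TSS) were called bound, and a position downstream of the TSS has a positive sign. At IDR summits of ribosomal protein genes seen in both replicates, the signals of the replicates added up to the IDR signal almost exactly, with a median ratio of 0.995 for the sum over the IDR value. Replicate 3 had the higher signal, with a median ratio of 1.72 to replicate 1 at ribosomal protein genes and 1.72 at the other bound genes, so the IDR and pooled signals carry more of replicate 3. No read totals were used, and the depth of the samples is unknown.

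The start regions of 6 bound genes show letters that recurred at the summits. They are examples that hold these letters, and bound genes without them are not printed. The shared core CGGAA lay within 50 bp of the IDR summit at 42 of 66 bound genes (63.6%). Each sequence below is the sense strand on assembly dm6, from 60 bases before the TSS through the first 30 transcribed bases. Capitals mark CGGAAG or CCGGAA on either strand, which read CTTCCG and TTCCGG where they lie on the antisense strand, and the string TCTTT at the start of transcription. RpL24 lies at chr2L:13395063-13395152 on the minus strand, RpS10b at chrX:19597980-19598069 on the plus strand, RpL22 at chrX:765101-765190 on the minus strand and RpL13A at chr3R:5624414-5624503 on the plus strand. RpS19a lies at chrX:16637834-16637923 on the plus strand and sta at chrX:1483263-1483352 on the minus strand.
RpL24: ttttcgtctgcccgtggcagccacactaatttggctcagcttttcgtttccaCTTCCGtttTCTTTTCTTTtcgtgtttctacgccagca
RpS10b: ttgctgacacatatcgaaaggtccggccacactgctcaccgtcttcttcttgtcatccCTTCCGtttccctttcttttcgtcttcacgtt
RpL22: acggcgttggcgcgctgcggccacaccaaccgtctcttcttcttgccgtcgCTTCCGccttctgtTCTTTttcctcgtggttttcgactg
RpL13A: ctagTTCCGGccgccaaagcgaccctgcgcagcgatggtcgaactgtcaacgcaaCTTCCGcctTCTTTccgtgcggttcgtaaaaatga
RpS19a: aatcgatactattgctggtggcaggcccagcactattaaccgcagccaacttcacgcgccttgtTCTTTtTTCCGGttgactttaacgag
sta: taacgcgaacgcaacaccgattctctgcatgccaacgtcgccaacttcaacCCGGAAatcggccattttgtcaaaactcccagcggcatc
Counting the TSS as 1 and the base before it as -1, CTTCCG began at -8 in RpL24, -2 in RpS10b, -9 in RpL22 and -5 in RpL13A. The IDR summit lay 23.5 bp from the centre of this string in RpL24, 3.5 bp in RpS10b, 3.5 bp in RpL22 and 7.5 bp in RpL13A. In RpS19a, TTCCGG began at 11 and its centre was 4.5 bp from the summit. In sta, which encodes the laminin-receptor-like protein of the small subunit, CCGGAA stood on the sense strand at -9, with the summit 2.5 bp away.

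The paralogues of 4 of these genes had no IDR summit within 500 bp. Those of RpL24, RpS10b and RpS19a are shown for comparison (that of RpL22 is not), with 1 further gene, RpL9, whose start region holds the same letters without an IDR summit. RpL24-like lies at chr3R:11431553-11431642 on the minus strand, RpS10a at chr3R:27652700-27652789 on the plus strand and RpS19b at chr3R:23933501-23933590 on the minus strand. RpL9 lies at chr2L:11004124-11004213 on the minus strand.
RpL24-like: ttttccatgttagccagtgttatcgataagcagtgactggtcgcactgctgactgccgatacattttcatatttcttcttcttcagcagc
RpS10a: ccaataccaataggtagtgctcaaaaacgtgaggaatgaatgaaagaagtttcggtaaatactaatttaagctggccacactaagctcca
RpS19b: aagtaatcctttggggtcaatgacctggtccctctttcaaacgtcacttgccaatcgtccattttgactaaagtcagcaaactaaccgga
RpL9: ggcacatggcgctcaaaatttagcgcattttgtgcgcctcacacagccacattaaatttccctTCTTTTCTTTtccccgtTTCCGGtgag
The start regions of RpL24-like and RpS10a hold none of the marked strings. With the same numbering, CCGGAA began at 26 in RpS19b and ran past the printed letters. RpL9 had TTCCGG at 21 behind a TCTTT start, as RpS19a has it at 11, and had no IDR summit.

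Eip74EF-GFP summits lay at most ribosomal protein genes. An IDR summit lay within 500 bp of a TSS at 66 of 92 ribosomal protein genes (71.7%, exact Clopper-Pearson 95% interval 61.4 to 80.6), whereas 2109 of 13853 other genes (15.2%) had one. Over all 13945 protein-coding genes, 15.6% were bound. In the longer pooled list 75 of 92 (81.5%, 72.1 to 88.9) had a summit, against 38.7% of all genes. The intervals cover counting error over genes only.

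Each replicate read alone gave a similar count. Among the strongest 5004 peaks of replicate 3, summits lay at 60 of 92 ribosomal protein genes (65.2%), against 14.5% of all genes. Among as many peaks of replicate 1, they lay at 65 of 92 (70.7%), against 18.1% of all genes. Of the 66 bound genes, 53 had a summit among the strongest peaks of both replicates.

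Large and small subunit genes were bound in overlapping proportions. The large subunit had 40 of 53 genes bound (75.5%, 61.7 to 86.2) and the small subunit 26 of 39 (66.7%, 49.8 to 80.9). In the pooled list the order turned round, with 42 of 53 large subunit genes (79.2%) and 33 of 39 small subunit genes (84.6%). The intervals overlapped in both lists, and no test between the subunits was made. Median IDR signal was 418 at bound large subunit genes and 343 at bound small subunit genes.

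**Figure D1:**
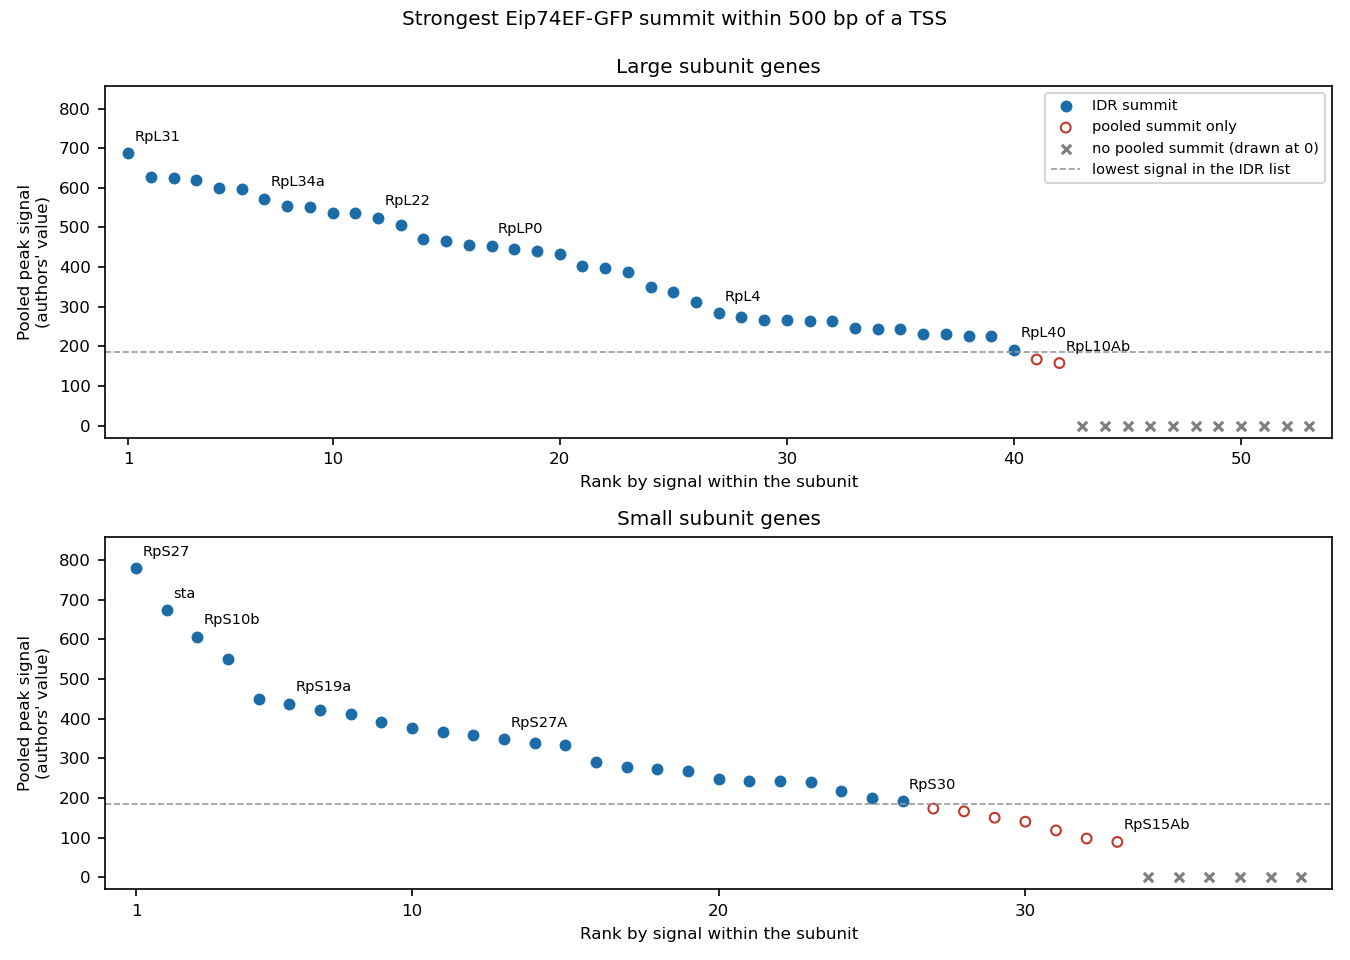
Signal of the strongest peak within 500 bp of a TSS at each of the 92 ribosomal protein genes, large subunit above and small subunit below, in the units of the authors' pooled list. Filled points are IDR summits, open points are pooled summits only, crosses at 0 are genes with no pooled summit, and the dashed line is the lowest IDR signal, 185. Genes run by rank along the horizontal axis, some are named, and the filled points reach from 779 at RpS27 down to 191 at RpS30.

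The peaks were common but of moderate height. IDR signals at the 66 bound ribosomal protein genes ran from 191 to 779 with a median of 372, and at the 2109 other bound genes from 185 to 3224 with a median of 303. Of the ribosomal protein genes 43 of 66 (65.2%) exceeded the median of the IDR list, against 1186 of 2109 other bound genes (56.2%). At the top of the list, 3 of the 66 had a summit among the 500 strongest IDR peaks, against 305 of the 2109 other bound genes. Taken over bound and unbound genes, these were 3 of 92 ribosomal protein genes and 305 of 13853 others. Among the 100 strongest peaks the counts were 0 of 66 and 68 of 2109.

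RpS27, a zinc-binding protein of the small subunit, had the highest signal, 779 at a summit 13 bp past its TSS (3R 25247501). Replicate 3 gave 536 there and replicate 1 gave 242. RpL31, which sits at the exit of the peptide tunnel, had 687 at -1 (2R 9587234), with 430 in replicate 3 and 250 in replicate 1. The gene sta had 674, with 420 in replicate 3 and 245 in replicate 1. These 3 were the members among the 500 strongest IDR peaks.

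Among the next 7 were RpL30 (627), RpL19 (624), RpL24 (621), RpS10b (606), RpL34b (600) and RpL34a (573). RpL19 and RpL24 take part in the bridges that join the subunits, and their summits lay at -17 and 18. RpL30 had the highest signal of replicate 1 among the 10, 287, and the lowest of replicate 3, 336, so the order of the strongest genes differed between the replicates and neighbours in it cannot be told apart. RpL34b differed from the other 9 in position, with its summit at -186, nearer to the TSS of CG8132 than to its own.

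Genes for proteins around the catalytic centre and the tunnel were spread over the whole range. RpL8 and RpL3, which lie close to the peptidyl transferase centre, had signals of 553 and 537. RpL4, which lines the tunnel, had 284, and RpL23A, at the tunnel exit, had 387. At RpL23A replicate 1 gave 135 at -19, whereas the nearest summit of replicate 3 lay at -204, with a signal of 80.1. RpL10, which is needed late in assembly of the tRNA sites, had no summit in any list. The 5S RNA is carried into the ribosome by RpL5 and RpL11 together, and these differed: RpL11 had 507 at -6, whereas RpL5 had no summit in any list. No list held a peak within 100 kb on either side of RpL5 or RpL10, so the absence extended well beyond their start sites.

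All 3 genes of the P stalk, the flexible arm that recruits translation factors, were bound at nearly the same level. RpLP0, the base of the stalk, had a signal of 454, and RpLP1 and RpLP2 had 434 and 455. In replicate 3 the values were 290 at RpLP0, 279 at RpLP1 and 269 at RpLP2, and in replicate 1 they were 162, 173 and 187 in the same order of genes. RpLP2 is also the 1 bound gene of a single exon, and its summit lay at -113.

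RpL40 and RpS27A are made as fusions to ubiquitin, which is then cut off. RpS27A had a signal of 348 at -9, and RpL40 had 192 at 99, near the lower end of the IDR list. Besides RpL40, the lowest signals among bound genes were at RpS30 (191), RpS2 (200), RpS9 (217), and RpL12 and RpL23 (227 each). Replicate 3 gave 142 at RpS30, 132 at RpS2 and 105 at RpS9, and replicate 1 gave 48.7, 71.7 and 110 at the same genes, so the order at the lower end also depended on the replicate. RpS6, the ribosomal substrate of S6 kinase, had 241.

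Position relative to the TSS separated the ribosomal protein genes from other bound genes more plainly than signal. The strongest IDR summit of each bound ribosomal protein gene had a median position of 3 bp, with quartiles of -20 and 34. At other bound genes the median was -139, with quartiles of -239 and 8. Summits within 50 bp of the TSS occurred at 49 of 66 ribosomal protein genes (74.2%) and at 283 of 2109 other bound genes (13.4%). Within 100 bp the counts were 60 of 66 (90.9%) and 578 of 2109 (27.4%).

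**Figure D2:**
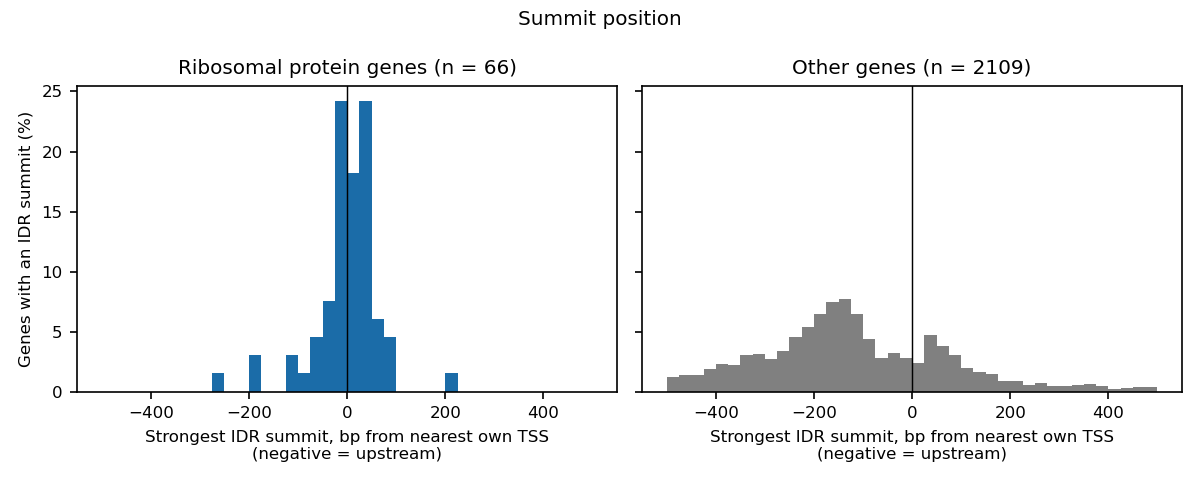
Position of the strongest IDR summit from the nearest TSS of its own gene in bp (negative is upstream), as a percentage of bound genes, for 66 ribosomal protein genes on the left and 2109 other genes on the right. The ribosomal protein genes gather at the TSS (median 3 bp), whereas the other genes have a broad crest upstream (median -139 bp).

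The same position was seen in each list. Median positions were 5.5 bp at ribosomal protein genes against -145 at other genes in the strongest peaks of replicate 3, and 1 bp against -125 in those of replicate 1. Within 100 bp of the TSS lay 93.3% against 25.8% in replicate 3 and 84.6% against 30.5% in replicate 1. Where both replicates had a summit within 100 bp of the IDR summit, their own summits were a median of 15 bp apart at ribosomal protein genes and 24 bp apart at other bound genes.

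The 6 bound genes whose summit lay over 100 bp from the TSS were RpL14 (221), RpL34b (-186), RpL7-like (-270), RpLP2 (-113), RpS14a (-188) and RpS20 (-107). Of the 66 summits, 64 were nearest to the TSS of the ribosomal protein gene itself, 97.0% against 80.4% at other bound genes. The exceptions were RpL34b and RpL7-like, whose summit was nearest to JhI-21. Each bound gene had a strongest summit of its own, and 11 of 66 had a second IDR summit within 500 bp of a TSS.

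Of the 26 genes without an IDR summit, 9 had a weaker pooled summit. The 5 strongest included RpL6 (167), RpL10Ab (158) and RpS13 (150). The IDR list holds the 5004 strongest pooled peaks, so summits in the pooled list alone lie under its lowest signal of 185 by construction. The pooled signal of the other 4 was lower, at RpS14b (140), RpS24 (118), RpS28a (97.5) and RpS15Ab (88.9). Replicate 1 had a summit within 500 bp at all 9 and replicate 3 at 6. Most of these weak summits kept the position of the strong ones, for RpL6 lay at 9, RpS13 at 1, RpS15Ab at 5 and RpS24 at 19, while RpS28a lay at 287.

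The remaining 17 genes had no pooled summit within 500 bp. Among them were RpL5, RpL9, RpL10, RpL10Aa, RpL15, RpL21, RpL22-like, RpL24-like, RpL36A, RpL37-2 and RpL38 of the large subunit, and RpS5b, RpS10a, RpS19b, RpS26 and RpS28-like of the small subunit. In 6 of them a single replicate had a summit. RpL38 had one in replicate 3, with a signal of 179 at 68. Among those with a summit in replicate 1 were RpL9 (163), RpL36A (72.1), RpL15 (65.8) and RpL24-like (42.6). The other 11 had no summit in any of the 4 lists.

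The absence of a listed summit was not always a low signal. The 163 of RpL9 in replicate 1 and the 179 of RpL38 in replicate 3 exceeded the lowest signal of the pooled list, 37.4, to which the replicates add. Conversely, 4 bound genes had no summit of replicate 3 within 500 bp. At RpL41 the IDR signal of 398 exceeded that of replicate 1 (123) by 275, a difference that only 1213 of the 30000 peaks of replicate 3 surpassed. The difference was 200 at RpS16, 133 at RpL26 and 116 at RpL7-like. RpL23A, with an IDR signal of 387 at -10, is not among these 4, but its nearest summit of replicate 3 lay at -204. Such gaps were rare over the whole lists, since 243 of the strongest 5004 peaks of replicate 1 (4.86%) and 33 of those of replicate 3 (0.659%) had no pooled summit within 500 bp. Of the IDR peaks, 77 of 5004 (1.54%) had no summit of replicate 3 within that distance, a smaller share than the 4 of 66 bound ribosomal protein genes. Their origin was not tested.

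Among the genes without a pooled summit, 4 lay in stretches where hardly any peak was listed. RpL5, RpL10, RpL15 and RpL38 had 0 pooled summits within 100 kb on either side. In the same span replicate 3 had 2 summits around RpL38 and replicate 1 had 1 around RpL15. These spans were counted after the values of the genes had been seen. How well reads can be placed there was not tested beyond the sequence around each TSS, where all 31-base strings were unique in the reference for these 4 genes.

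The paralogues differed from each other in most pairs. Symbols define 12 pairs, and an IDR summit lay at both genes of 2, at 1 gene of 9 and at neither gene of 1. In each of the 2 pairs with both bound, the summit of 1 gene, RpL34b or RpL7-like, was nearest to the TSS of another gene. Genes in a pair were bound in 13 of 24 cases (54.2%), and genes outside pairs in 53 of 68 (77.9%), both to be read against 15.6% of all genes. No test between these groups was made.

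**Figure D3:**
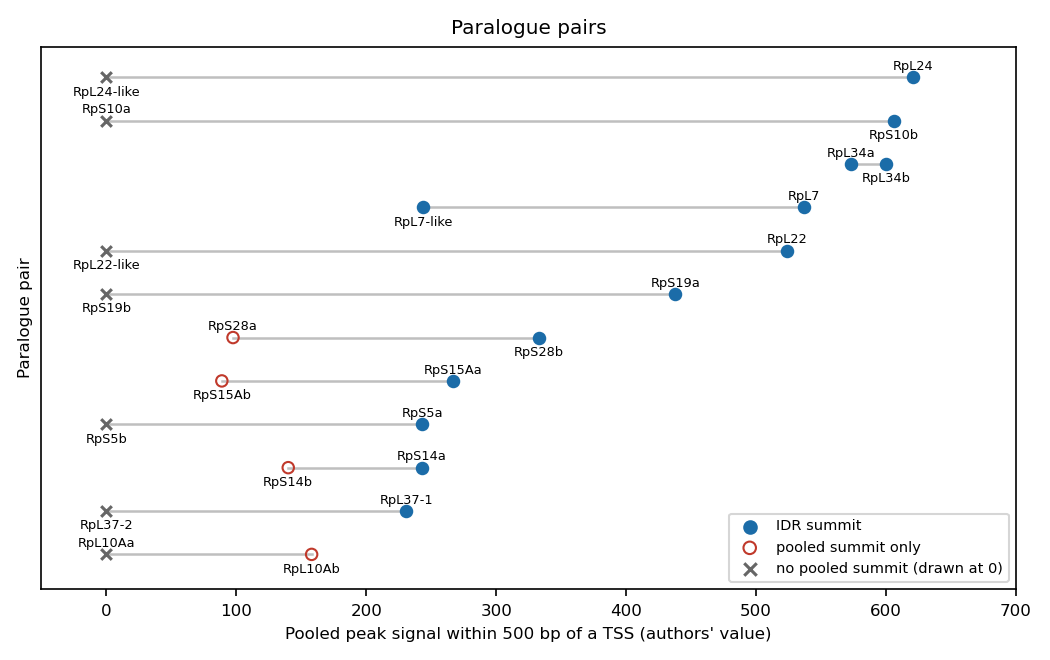
Pooled signal within 500 bp of a TSS for both genes of each of the 12 paralogue pairs, joined by a line. Filled points are IDR summits, open points pooled summits only, and crosses at 0 genes with no pooled summit. Only RpL34a with RpL34b and RpL7 with RpL7-like have filled points at both ends.

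RpL34a and RpL34b both had a strong IDR summit within 500 bp, at 573 and 600. The summit of RpL34b lay at -186, nearer to the TSS of another gene than to its own. Their coding sequences were 75% identical and their start regions shared no 31-base string. Replicate 3 gave 380 at RpL34a and 395 at RpL34b, and replicate 1 gave 190 and 205. RpL7 had 537 and RpL7-like had 244, and the yeast counterpart of RpL7-like acts in ribosome assembly and not in the mature subunit. The summit of RpL7-like lay at -270, and in windows of 250 bp this pair was bound at RpL7 alone.

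In 6 pairs a bound gene stood beside one with no pooled summit. RpL24 had 621 and RpL24-like, whose yeast counterpart is also an assembly factor, had none. RpS10b had 606 and RpS10a none, and RpL22 had 524 and RpL22-like, known for its expression in the testis, none. RpS19a had 438, RpS5a 243 and RpL37-1 231, and RpS19b, RpS5b and RpL37-2 had none. RpS19b and RpS5b are known for expression in the ovary. Both had summits beyond the window, an IDR summit at -864 with a signal of 293 for RpS19b and a pooled summit at -547 with 60.1 for RpS5b.

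In 3 further pairs the weaker gene had a pooled but no IDR summit within 500 bp. RpS28b had 333 against 97.5 at RpS28a, RpS15Aa had 267 against 88.9 at RpS15Ab, and RpS14a had 243 against 140 at RpS14b. An IDR summit of 331 lay beyond the window of RpS28a, at 535. RpL10Ab had a pooled summit of 158, and RpL10Aa had no summit in any list. RpS28-like, a further relative of RpS28a and RpS28b, also had none.

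Reads from sequence shared by paralogues cannot be assigned to either, so the shared sequence was measured. RpS14a and RpS14b, 97.8% identical in coding sequence and neighbours on the X chromosome, shared 123 strings of 31 bases within 500 bp of their TSSs. The other 11 pairs shared none, including RpS15Aa and RpS15Ab with 98.2% identity. Under 90% of the 31-base strings were unique in the reference at 3 of 92 ribosomal protein genes, RpS14a (86.0%), RpS14b (84.0%) and RpS15Ab (81.6%). Values at these 3 are therefore uncertain.

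Gene structure also differed within the pairs. In the 9 pairs with 1 bound gene, the bound gene was never a single-exon gene (0 of 9), whereas the gene without an IDR summit was one in 4 of 9, namely RpL37-2, RpS10a, RpS15Ab and RpS28a. Over all ribosomal protein genes, 1 of 6 single-exon genes was bound and 65 of 86 with 2 or more exons (75.6%). Other genes showed the same order at lower levels, with 7.12% of single-exon genes bound and 16.8% of the rest.

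**Figure D4:**
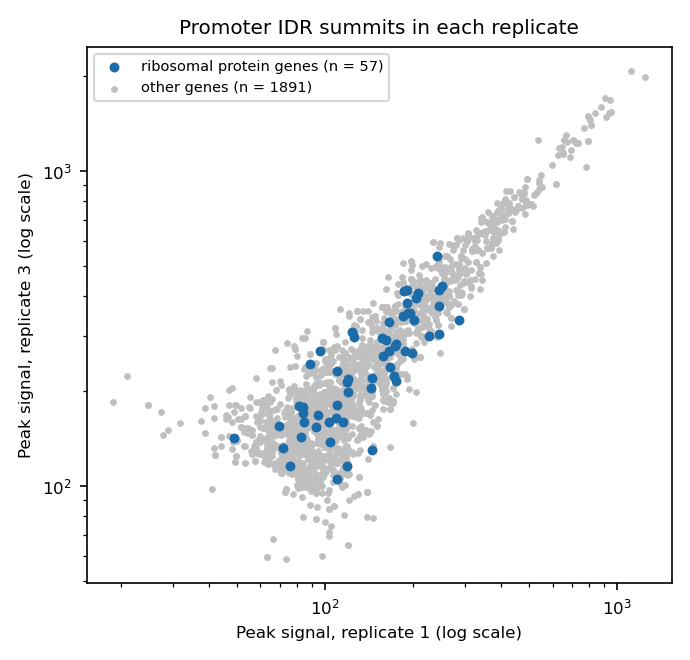
Signal of the replicate summits within 100 bp of each IDR summit, replicate 1 across and replicate 3 up, both on log scales, for 57 ribosomal protein genes and 1891 other genes matched in both replicates. The ribosomal protein genes lie inside the cloud of other genes and below its upper end.

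The replicates ranked the ribosomal protein genes in a similar order. Of 66 IDR summits, 57 (86.4%) had a summit of both replicates within 100 bp, against 1891 of 2109 (89.7%) at other bound genes. Across these 57 genes Spearman's rho between the replicates was 0.838 and Pearson's r of log2 signal 0.805, given as a description of genes from the same libraries. The ratio of replicate 3 to replicate 1 ran from 0.908 at RpL14 to 2.92 at RpS30, with quartiles of 1.5 and 2. At RpL14 the replicates gave 130 and 144, whose sum exceeded its IDR signal of 232.

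Sequences of the ETS type were frequent at the summits of ribosomal protein genes. Because these summits lie closer to the TSS than others, they were compared with the 547 other promoter IDR summits within 100 bp of a TSS, a comparison chosen after the data had been seen. The string CGGAA, on either strand within 50 bp of the summit, stood at 42 of 60 such summits of ribosomal protein genes (70.0%) and at 144 of 547 others (26.3%). Its extension CCGGAA stood at 43.3% against 6.22% and CGGAAA at 53.3% against 11.9%. Both were chosen from hexamers ranked at summits of these same genes, and CGGAA was chosen after values were seen. Their higher shares are therefore no independent result. CGGAAG, not chosen from that ranking, stood at 12 of 60 against 45 of 547 (8.23%). These strings overlap each other. The longer string CCGGAAGT was rare in both groups, at 1 of 60 against 4 of 547 (0.731%). Median GC content of these windows was 44.1% against 43.6%.

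**Figure D5:**
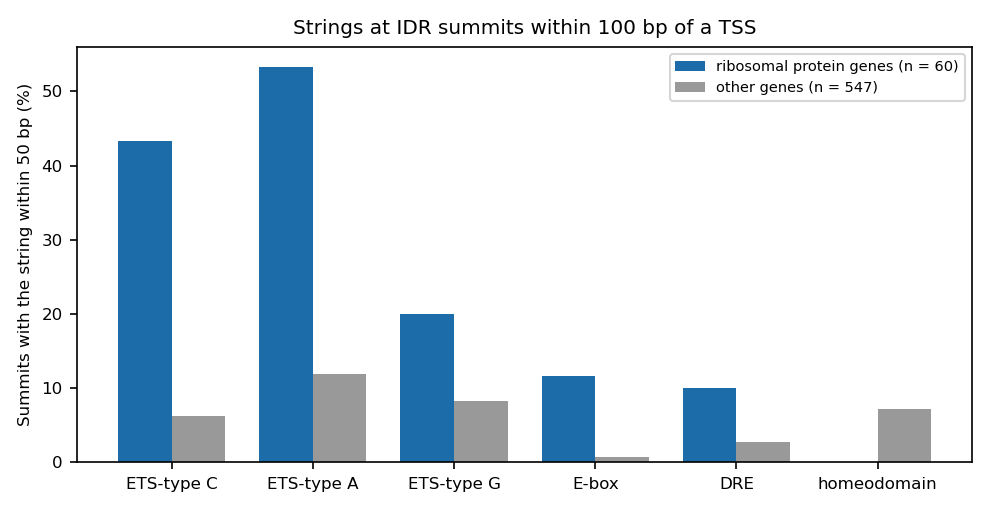
Percentage of IDR summits within 100 bp of a TSS that hold a string on either strand within 50 bp, for 60 summits of ribosomal protein genes (left bar of each pair) and 547 of other genes. ETS-type C stands for the string CCGGAA, ETS-type A for the string CGGAAA and ETS-type G for the string CGGAAG. All 3 are taller at ribosomal protein genes, and the homeodomain string TAATTA has 0 there against 7.13% at other genes. CCGGAA and CGGAAA were chosen from hexamers ranked at summits of these same ribosomal protein genes.

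Other strings also differed in share between these summits. The E-box CACGTG, the site of bHLH factors such as Myc and its partner Max, stood at 11.7% against 0.731%. ACGTGG, which overlaps it by letters and was taken from the ranking below, stood at 12 of 60 against 5 of 547 (0.914%). TATCGATA, the core of the DNA replication-related element bound by DREF, stood at 6 of 60 against 15 of 547 (2.74%). TAATTA, a homeodomain site, stood at 0% against 7.13%. Over all 66 summits of ribosomal protein genes and 1669 other promoter summits, the 5 hexamers with the highest ratio of shares were ACGTGG (19.7% against 1.38%), CACGTG (12.1% against 0.899%), CACCGG (10.6% against 0.959%), GCCGGA (18.2% against 1.74%) and CCGGAA (39.4% against 4.13%). They were ranked among the 181 of 2080 hexamers present at 10% or more of the ribosomal protein gene summits. This ranking was not limited to summits near a TSS, and the median GC content of its windows differed, at 43.6% against 34.7%.

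Median IDR signal was 428 at ribosomal protein gene summits with CGGAA within 50 bp and 312 at those without it. It stood at 8 of the 10 strongest and 3 of the 10 weakest, the exceptions among the strongest being RpL34b and RpL34a. CGGAA was chosen after values were seen, so its relation to signal at these same summits is no independent result. A match is a description of letters and not a measured binding site.

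Read by gene instead of by summit, the strings also stood at ribosomal protein genes without an IDR summit, but at a smaller share of them. CCGGAA from -50 to 50 stood at 25 of 66 bound genes (37.9%) and 5 of 26 unbound genes (19.2%), against 2.87% of all genes. CGGAAG from -250 to 50 stood at 16 of 66 (24.2%) and 3 of 26 (11.5%). CCGGAA had been chosen from summits of the bound genes, and no test was made. CCGGAA lay within 100 bp of the TSS at 36 of 92 ribosomal protein genes (39.1%) and at 5.68% of other genes. With it, 30 of 36 ribosomal protein genes were bound (83.3%), and without it 36 of 56 (64.3%), while other genes were bound in 15.8% and 15.2% of cases. CGGAAG in the promoter from -250 to 50 was found at 20.7% of ribosomal protein genes and 6.4% of all genes.

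The strand of the CCGGAA strings was also unequal. At ribosomal protein genes 31 of 39 matches (79.5%) lay on the antisense strand, so that TTCCGG reads along the gene, against 441 of 873 (50.5%) at other genes. Of the 33 matches at bound ribosomal protein genes, 27 (81.8%) lay within 50 bp of the IDR summit, with a median distance of 21.5 bp over all 33. The string had been chosen from sequence within 50 bp of these summits, so its closeness to them is no independent result.

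The pyrimidine start was searched as TCTTT with its C within 10 bases of a TSS. It was present at 44.6% of ribosomal protein genes and 3.0% of all genes, and TATAAA, at the usual place of a TATA box, at 1.09% and 8.95%. Of the ribosomal protein genes, 32 of 41 with TCTTT were bound (78.0%) and 34 of 51 without it (66.7%), whereas 62 of 378 other genes with TCTTT were bound (16.4%). Median signals at the bound ribosomal protein genes were 378 with and 372 without the string. TCTTT and a promoter CGGAAG occurred together at 10 ribosomal protein genes, RpL13A, RpL22 and RpL24 among them, and all 10 were bound, against 5 of 23 other genes with both strings (21.7%).

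The genes have a compact structure, and this was set beside binding. Their median length was 1325.5 bp against 2166 for all genes, and 29 of 92 (31.5%) host small nucleolar RNAs (snoRNAs), RNAs that guide modification of ribosomal RNA, in their introns or exons, against 0.602% of all genes. Hosts were bound in 23 of 29 cases (79.3%) and genes with no snoRNA in 43 of 63 (68.3%), with 32.7% and 15.1% among other genes. RpS5a holds 14 snoRNAs, the most of any ribosomal protein gene, and had a signal of 243.

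A TSS of another gene lay within 1000 bp of 58 of 92 ribosomal protein genes (63.0%), against 42.9% of all genes, so a summit can belong to more than 1 gene. With such a neighbour 45 of 58 were bound (77.6%), and without one 21 of 34 (61.8%), against 19.9% and 11.7% of other genes. By chromosome arm, 12 of 19 were bound on 2L (63.2%, against 16.5% of all genes there), 14 of 20 on 2R (against 16.3%), 10 of 14 on 3L (71.4%, against 16.9%) and 15 of 23 on 3R (65.2%, against 15.0%). On X they were 14 of 15 (93.3%, against 13.2%), and on chromosome 4 they were 1 of 1, against 6 of 80 genes.

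Genes that build ribosomes without being part of them were counted in the same way. Of 30 genes for ribosome biogenesis factors, 7 had an IDR summit within 500 bp (23.3%, 9.93 to 42.3) and 13 a pooled summit (43.3%), set against 15.6% and 38.7% of all genes. The strongest were Ns2 (1139), a nucleolar GTPase, eIF6 (874), which keeps the large subunit from joining too early, nop5 (361), a snoRNP protein, Surf6 (329) and Mybbp1A (247). At nop5 replicate 1 gave 162, and replicate 3 had no summit within 500 bp. Both Ns2 and eIF6 exceeded every ribosomal protein gene in signal. Their position differed, with a median of -261 over the 7 and 1 of 7 within 100 bp of a TSS, against 60 of 66 at ribosomal protein genes.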

How the data were processed

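Peak lists on assembly dm6 were analysed. According to descriptions deposited with the files, each replicate and the pool of both were called for peaks by the authors against a control library, and the IDR list was derived from these calls. The aligner is, like the peak caller, not given in the sources used here. The deposited signal of a peak is relative to the control and was used within a list. Of the columns deposited by the authors, the −log10 of the q-value was left out, and the summit offset gave the summit position. The 5004 IDR peaks were found to be the 5004 strongest pooled peaks.

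Summits were placed on the TSSs of all transcripts of protein-coding genes in the Ensembl release 115 annotation (BDGP6.54, the same assembly), and sequences were read from the RefSeq copy of that assembly, with python 3.11.15, numpy 2.4.6 and pandas 2.3.3. The strongest summit within 500 bp was taken for each gene. Intervals are exact Clopper-Pearson intervals at 95% from scipy 1.17.1. snoRNA hosts were genes that contain an annotated snoRNA on the same strand. Identity of coding sequences came from global alignment with biopython 1.88. No count model could be used, the data being peak lists from 1 group, and no test was made. The counting steps were tested on simulated data.

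Genes and lists were chosen with earlier results of these data known. The rule for named genes took the 10 highest and 5 lowest IDR signals (6 with a tie), all paralogues, P stalk and ubiquitin fusion genes, and genes without an IDR summit. A few genes that meet it are counted but not reported by name. Genes of the catalytic centre, tunnel, 5S RNA and S6 kinase examples, the comparison near the TSS, the strings chosen from the hexamer ranking, the string CGGAA and the check of gaps between lists were chosen after values were seen. Alternatives were windows of 250 and 1000 bp, the upper part of each list (the strongest 2502 IDR peaks), 1 TSS per gene, intervals covering a TSS, each replicate alone, genes with no neighbouring TSS, and the nearest TSS only. snoRNAs and TSSs carry no error estimate.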

Additional observations from a re-analysis of the deposited data

How the results depend on the processing

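The count of 66 bound ribosomal protein genes stayed between 60 and 65 with each replicate alone, against 14.5% and 18.1% of all genes. It was 65 in 250 bp windows (against 12.2%), 69 in 1000 bp windows (18.8%), 62 where the peak interval had to cover a TSS (9.6%) and 64 where a summit counted for the nearest TSS only (12.8%). With only the strongest 2502 IDR peaks it was 43 of 92, against 8.81% of all genes, and among genes with no neighbouring TSS it was 21 of 34, against 11.9%. For the large subunit the count was 35 to 39 with each replicate alone, 27 with the strongest 2502 peaks and 12 of 20 without neighbouring TSSs. For the small subunit it was 25 to 26 with each replicate alone, 16 with the strongest 2502 peaks and 9 of 14 without neighbouring TSSs. The cause of these falls was not tested. Pooled counts ranged from 69 to 80 with the full list of each replicate, against 36.0% of all genes in replicate 3 and 47.2% in replicate 1.

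Pairs bound at both genes numbered 1 in 250 bp windows, 4 in 1000 bp windows, 1 with the strongest 2502 peaks, 0 where the interval had to cover a TSS, and 1 to 3 with each replicate alone, so the figure of 2 depends on the window, the number of peaks and the replicate. It also depends on RpL34b and RpL7-like, whose summits were nearest to the TSS of another gene. The median IDR signal was 377 in 250 bp windows, 381 in 1000 bp windows and 449 with the strongest 2502 peaks. The median position was 1 to 5.5 bp with each replicate alone, -1 with the strongest 2502 peaks and 17 with 1 TSS per gene. No paired analysis was possible because there was 1 group. Depth is unknown, so a gene without a listed summit is not shown to be unbound, and 2 samples of 1 line without an untagged ChIP limit every statement here.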
